A study of Mus musculus with 6 samples.

Results

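Amino acid transporters were examined in RNA sequencing libraries of CD11c+ dendritic cells from mouse spleen, cells that take up and present antigen. The genes were all rows whose symbol begins with Slc1a, Slc3a, Slc6a, Slc7a, Slc36a, Slc38a or Slc43a, with Slc7a2 and Slc7a11 left out. This rule took 62 of the 24346 genes in the tables: 20 Slc6a rows, 14 Slc7a, 11 Slc38a, 7 Slc1a, 5 Slc36a, 3 Slc43a and 2 Slc3a. Of these, 59 are carrier genes or carrier subunits. The other 3 (Slc7a6os, Slc36a1os and Slc6a19os) are named for the strand opposite a carrier and are no carriers themselves. The name "amino acid transporter" is also loose for some of the 59. Slc43a3 encodes a purine nucleobase carrier, and the Slc6 family includes carriers of taurine, creatine, betaine, GABA and monoamines.

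The 3 IL-33 libraries came from CD11c+ cells treated with IL-33, a cytokine that injured barrier tissue sets free, and the 3 PBS libraries from cells treated with the vehicle PBS. In both groups the cells were spleen cells enriched for CD11c on an autoMACS magnetic sorter. Strain, genotype, sex, age, dose, route and time are not given in the labels, nor whether each library is from its own animal. The p-values therefore measure the spread between libraries, which may be technical.

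Cells take up amino acids through carriers of several families that differ in substrate and driving force. Heteromeric carriers join a glycoprotein heavy chain, CD98 (Slc3a2), to a light chain of the Slc7 family, and mostly exchange one amino acid for another. Sodium-coupled carriers of the Slc1, Slc38 and Slc6 families accumulate their substrates, and proton-coupled carriers of the Slc36 family act on endosomes and lysosomes as well as at the cell surface. In leukocytes, uptake of leucine, glutamine and arginine feeds protein synthesis and the kinase complex mTORC1.

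Levels are in FPKM (fragments counted per kilobase of a transcript and set against the mapped fragments of the library, as the authors scaled them), which compares genes per length of transcript. Of the 62 members, 26 reached 1 FPKM or more in 3 or more of the 6 libraries and were tested, 24 of them carriers. Another 36 were not tested, and 5 of these were listed at 0 in every library. In 23 of the 26 the level was at least 1 FPKM in all 6 libraries, so for these the filter did not depend on 1 group. The exceptions were Slc36a3, Slc36a1os and Slc43a1. Slc43a1 reached 1 FPKM only in the IL-33 libraries and Slc36a1os only in the PBS libraries. For these genes the filter thus favoured the direction in which they differed. Changes are differences of the group means of log2(FPKM + 1), PBS subtracted from IL-33. This scale understates the change of low genes. Each has a standard error (SE) and a p-value from limma, adjusted over all 11518 tested genes. A gene is said to have risen or fallen where the adjusted p was at or under 0.05.

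Most tested transporters did not pass the test. With IL-33, 4 members rose (Slc1a2, Slc7a5, Slc3a2 and Slc36a3), 4 fell (Slc38a2, Slc38a1, Slc7a1 and Slc6a12) and 18 did not pass. The number that fell was 1 (Slc7a1) when any 1 of IL-33 replicates 1 and 2 and PBS replicates 1 and 2 was left out (19.2% to 21.0% of all tested genes fell in these fits). The 8 members that passed were 30.8% of the 26, whereas 53.6% of all tested genes passed. Higher members made up 15.4% against 28.0% of all tested genes, and lower members 15.4% against 25.5%. The median change of the 26 was 0.02, beside 0.01 over all tested genes, and the median size of the change regardless of sign was 0.22, beside 0.30. The IL-33 libraries lay entirely above the PBS libraries for 6 members (32.7% of all tested genes did so) and entirely below for 6 (30.9% of all tested genes), together 46.2% of members against 63.6%. Slc43a1 (above) and Slc36a1os (below) are among them, and the filter took each through 1 group alone. A change of at least 2-fold was seen for 1 member, Slc1a2, and for 5.39% of all tested genes.

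**Figure D1:**
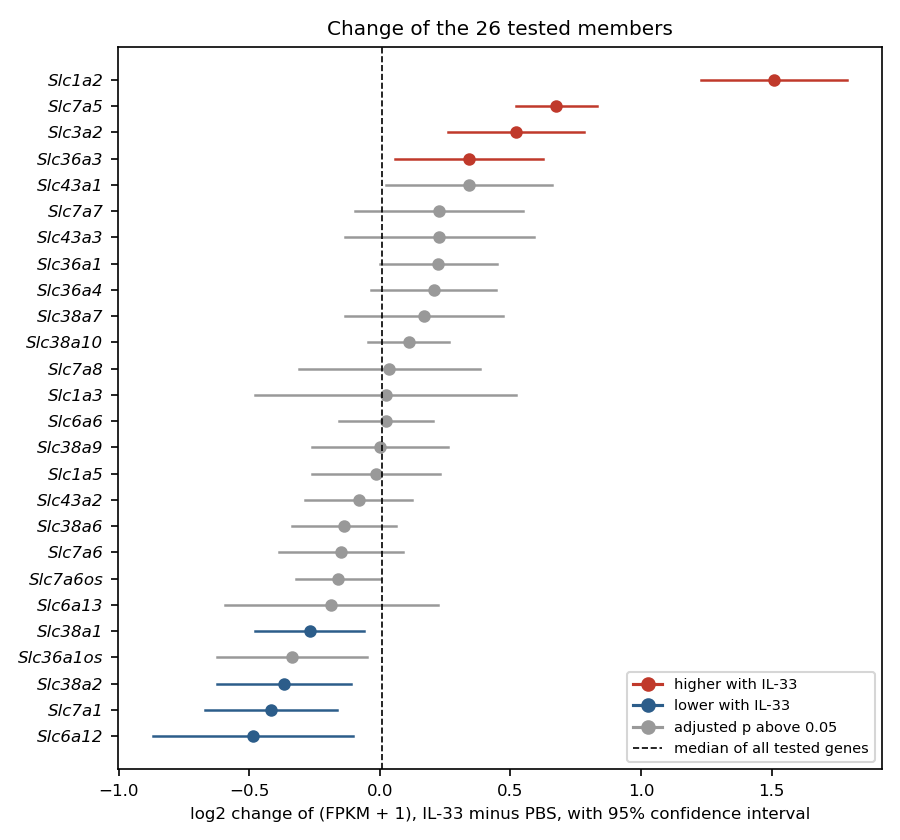
Log2 change of each of the 26 tested members (IL-33 minus PBS, limma estimate) with its 95% confidence interval, ordered by size; red members were higher and blue members lower at an adjusted p of 0.05 or less, and the dashed line is the median of all tested genes (0.01). Slc1a2 stands apart at 1.51, and most grey intervals take in changes of both signs.

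The scaling of the libraries bears on the counts of calls. The FPKM values summed to 778391 to 841884 per IL-33 library and to 614522 to 641412 per PBS library. The spacing of low values gave the relative divisor applied to each library, which need not be its sequencing depth. It ranged from 0.945 to 1.22 relative to PBS replicate 1, with both groups overlapping. With libraries rescaled to equal totals the median change of all tested genes moved to -0.29 and that of the members to -0.28. Then 2 members were higher (11.1% of all tested genes were) and 13 lower (50.7% of all tested genes were). Estimates of 10 members that were at or above 0 as deposited were below 0 with equal totals: Slc38a10 and Slc6a6, which passed as lower, and Slc1a3, Slc7a7, Slc7a8, Slc36a1, Slc36a4, Slc38a7, Slc38a9 and Slc43a3, which did not pass. The members' FPKM summed to 470, 489 and 516 with IL-33 and to 448, 484 and 467 with PBS as deposited, so the groups overlapped. With equal totals these sums were 400.0, 451 and 473 with IL-33 and 522, 540.2 and 522 with PBS.

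Markers of several cell types other than dendritic cells moved with the treatment, and their part in the transporter values was not tested. Itgax, which encodes CD11c, was at 272 to 299.9 FPKM with IL-33 and 228 to 249 with PBS, and no marker of any list was at 0 in all libraries. Summed T cell markers lay at 131 to 141 FPKM with IL-33 and 280.3 to 517 with PBS, and all 11 tested fell. Summed NK cell markers lay at 203 to 318 against 515 to 580.0 FPKM, and all 10 fell. Eosinophil markers (8 of 10 rose, none fell) lay at 882 to 1263 against 220.2 to 312 FPKM, and plasma cell markers (9 of 10 rose, none fell) at 555 to 592 against 221 to 281. Neutrophil markers (8 of 10 rose, 1 fell) lay at 1225 to 2469 against 492 to 806 FPKM. B cell markers (3 of 10 fell, none rose) lay at 369.9 to 500.4 against 337 to 819 FPKM, and macrophage and monocyte markers (4 of 12 rose, 1 fell) at 3995 to 5217 against 2598 to 4415. The 12 markers of conventional dendritic cells were split, 6 higher and 5 lower. In such bulk samples, fewer cells of a type cannot be told apart from less RNA per cell.

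CD98 and its partner LAT1 were the heteromeric subunits among the members that rose. Slc3a2, the CD98 heavy chain that carries its light chains to the cell surface, was the most abundant member in both groups. It stood at 69.9, 87.6 and 88.0 FPKM in PBS replicates 1, 2 and 3. The IL-33 replicates had 108, 116 and 129 FPKM in the same order. Every IL-33 library lay above every PBS library. The means were 81.8 ± 10.4 and 118 ± 10.7 FPKM (SD, n = 3 per group), a log2 change of 0.52 (SE 0.11, limma adjusted p = 0.00679). Left-out libraries did not end this call, but it rested on the scaling: the change was 0.18 with equal totals (limma adjusted p = 0.187), 0.25 with quantile normalization (0.0887) and 0.22 with cyclic loess (0.114).

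Slc7a5, the LAT1 light chain that imports leucine and other large neutral amino acids, had the smallest SE of the 8 members that passed. Its levels were 7.85, 7.44 and 7.99 FPKM with PBS against 13.1, 12.9 and 12.97 FPKM with IL-33. The groups were far apart relative to the spread within them. The mean rose from 7.76 ± 0.29 to 12.99 ± 0.09 FPKM, 1.67-fold, with a log2 change of 0.68 (SE 0.07, limma adjusted p = 0.000482). Slc7a5 kept its call and direction in all 16 alternatives, with changes from 0.37 (equal totals) to 0.77 (cyclic loess).

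The other tested light chain members did not pass. Slc7a7, which exports cationic amino acids in exchange for neutral ones, stood at 21.1, 27.2 and 31.5 FPKM with PBS against 32.8, 29.3 and 30.7 with IL-33, and PBS replicate 3 fell within the range of the IL-33 libraries. Its change of 0.23 (SE 0.14) had a 95% interval from -0.09 to 0.55, and it passed without PBS replicate 3 (0.35). Slc7a6, a carrier of the same exchange type, was at 9.35 ± 0.97 with PBS and 8.32 ± 0.81 FPKM with IL-33 (change -0.15, SE 0.10), and passed as lower with equal totals (-0.46). Slc7a8, the LAT2 light chain with a broad preference for neutral amino acids, was at 11.4 ± 2.32 and 11.6 ± 1.25 FPKM (change 0.04, SE 0.15). Other heteromeric members, Slc3a1, Slc7a9, Slc7a10, Slc7a12 and Slc7a13, were below the filter, and Slc7a9 and Slc7a12 were listed at 0 throughout.

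**Figure D2:**
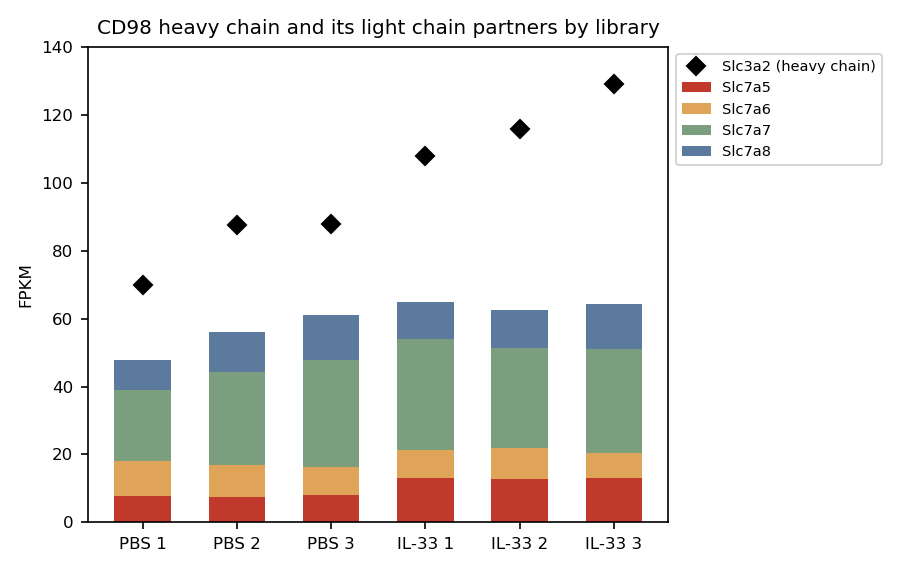
FPKM of the CD98 heavy chain gene Slc3a2 (black diamonds) and of its 4 light chain partners among the tested members (stacked bars) in each library. Slc7a genes left out by the rule are not shown. The red segment, Slc7a5, is near 8 FPKM in the PBS libraries and near 13 in the IL-33 libraries, while the diamonds run from 69.9 to 88.0 and from 108 to 129 FPKM.

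Ratios within a library are the same as deposited and with equal totals, where 1 factor multiplies a whole library, but can change with quantile normalization and cyclic loess. Of the 5 ratios formed, all chosen after the values were seen, 4 separated the groups. Each of the 4 gave p = 0.1, the smallest that an exact permutation test (two-sided) can give for 3 against 3 libraries (Benjamini-Hochberg adjusted p = 0.125). The ratios reuse the member values, so these p-values add no independent support. Slc38a2 per Slc3a2 had to separate, since with IL-33 all libraries were lower for Slc38a2 and higher for Slc3a2 than with PBS. Slc1a5 per Slc7a5 and Slc7a5 per Slc7a8 had to separate too. The gap between the groups in Slc7a5 was wider, as a fold, than the whole range of Slc1a5 or of Slc7a8. Slc7a5 per Slc7a8 was 0.889, 0.622 and 0.597 with PBS and 1.23, 1.16 and 0.998 with IL-33. It was thus lower in every PBS library than in every IL-33 library. The 4 tested light chains together came to 0.674 ± 0.029 per Slc3a2 with PBS and 0.546 ± 0.052 with IL-33. This is a partial sum, because the Slc7a genes that the rule left out are not in it. Slc1a5 per Slc7a5 was 6.38 ± 0.66 with PBS and 3.77 ± 0.42 with IL-33. Slc38a2 per Slc3a2 was 0.931 ± 0.138 with PBS and 0.495 ± 0.031 with IL-33. The ratio that did not separate the groups was Slc7a5 per Slc3a2, at 0.112, 0.0849 and 0.0908 with PBS and 0.121, 0.112 and 0.1005 with IL-33 (exact permutation p = 0.3, adjusted p = 0.3).

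Among the cationic carriers, Slc7a1 fell. Slc7a1 encodes CAT1, a widely expressed importer of arginine and lysine. Its levels were 6.24, 5.04 and 4.68 FPKM with PBS against 3.68, 3.90 and 3.55 FPKM with IL-33, with no overlap between groups. The mean went from 5.32 ± 0.81 to 3.71 ± 0.17 FPKM, a log2 change of -0.42 (SE 0.11, limma adjusted p = 0.0148). The call held without any 1 library and was lost with cyclic loess (-0.28, limma adjusted p = 0.0549). The Slc7a rows not named so far, Slc7a3, Slc7a4, Slc7a14 and Slc7a15, were below the filter, whatever their substrates.

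In the Slc1 family the glutamate carrier gene Slc1a2 rose more than any other tested member. Slc1a2 encodes GLT-1, best known for clearing glutamate into astrocytes. It stood at 1.05, 1.201 and 1.36 FPKM with PBS, against 4.99, 4.69 and 6.24 FPKM with IL-33. The lowest IL-33 library was thus well above the highest PBS library. The mean went from 1.21 ± 0.16 to 5.30 ± 0.82 FPKM, 4.40-fold, and the log2 change was 1.51 (SE 0.12, limma adjusted p = 0.000255). It kept its call in all 15 alternatives in which it was tested, with changes from 1.28 to 2.05. Its rank by level among the 26 went from 24 with PBS to 17 with IL-33.

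The 2 other tested members of the family did not pass. Slc1a5, the ASCT2 carrier of glutamine and other small neutral amino acids, was the third most abundant member in both groups. Its values were 54.2, 49.0 and 45.0 FPKM with PBS against 52.3, 52.1 and 42.6 FPKM with IL-33, and the groups overlapped throughout. The change was -0.01 (SE 0.11) with a 95% interval from -0.26 to 0.23, and -0.35 with equal totals (limma adjusted p = 0.0243). Slc1a3, the GLAST glutamate carrier, had the largest SE of the 26 (0.21), with levels of 4.53, 6.81 and 8.06 FPKM with PBS against 5.82, 5.35 and 8.47 with IL-33 (change 0.02).

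Slc38a2 and Slc38a1, sodium-coupled importers of glutamine, alanine and other neutral amino acids, fell. Slc38a2 (SNAT2) stood at 75.3, 79.8 and 70.8 FPKM with PBS, against 49.6, 59.4 and 66.3 FPKM with IL-33. The groups did not overlap, although IL-33 replicate 3 came close to PBS replicate 3. The means were 75.3 ± 4.50 and 58.4 ± 8.37 FPKM (log2 change -0.37, SE 0.11, limma adjusted p = 0.025). Slc38a1 (SNAT1) was at 26.1, 25.0 and 21.3 FPKM with PBS against 18.8, 20.05 and 20.5 with IL-33, so that the log2 change was -0.27 (SE 0.09, limma adjusted p = 0.0375). Both falls were found under all 3 other scalings, with changes of -0.70 to -0.61 for Slc38a2 and -0.59 to -0.31 for Slc38a1. They were sensitive to single libraries: the Slc38a2 call was lost when any 1 of IL-33 replicates 1 and 2 and PBS replicates 1 and 2 was left out (-0.38 to -0.26), and the Slc38a1 call without any 1 library except PBS replicate 3 (-0.29 to -0.21) and with no filter (limma adjusted p = 0.0549).

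Of the other Slc38 members, 4 were tested and did not pass. Slc38a9, the lysosomal arginine sensor that signals to mTORC1, was at 4.94 ± 0.47 FPKM with PBS against 4.95 ± 0.66 with IL-33 (change 0.00, 95% interval -0.26 to 0.26). Slc38a7, a lysosomal glutamine exporter, was at 6.07 ± 1.14 and 6.88 ± 0.47 FPKM (change 0.17, SE 0.13). Slc38a10 was at 24.4 ± 0.95 and 26.5 ± 1.199 FPKM, with all IL-33 libraries above all PBS libraries but a change of 0.11 (SE 0.07, limma adjusted p = 0.199). Slc38a6 was at 5.65 ± 0.46 and 5.04 ± 0.25 FPKM (change -0.14, SE 0.09), and passed as lower with equal totals (-0.42). Slc38a3, Slc38a4, Slc38a5, Slc38a8 and Slc38a11 were all under 0.2 FPKM in every library.

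**Figure D3:**
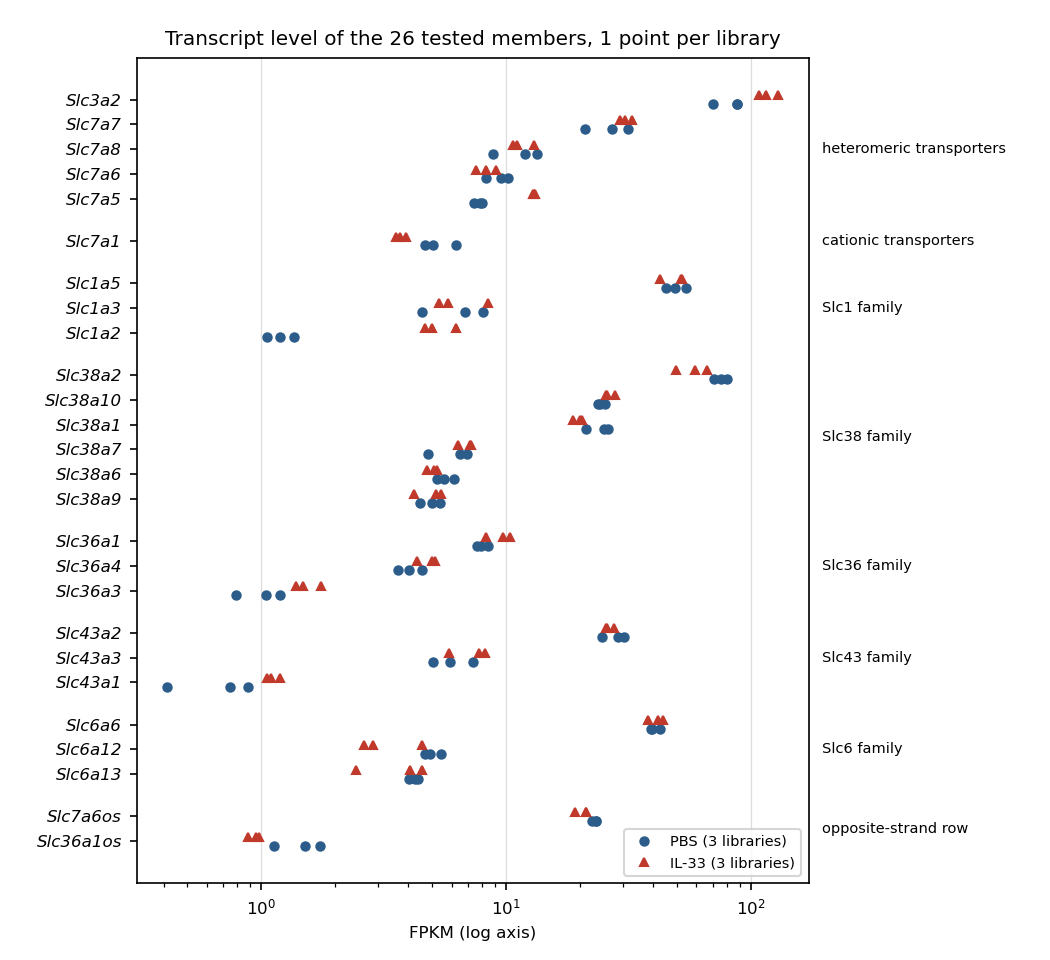
FPKM (log axis) of the 26 tested members in each library, grouped by family; blue circles are the 3 PBS and red triangles the 3 IL-33 libraries. Slc3a2 and Slc38a2 lie highest, the circles and triangles of Slc1a2 and Slc7a5 are clearly apart, and those of Slc1a5 and Slc6a6 overlap.

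All 3 tested genes of the proton-coupled Slc36 family had estimates above 0 as deposited. Slc36a3 rose narrowly, from 0.791, 1.05 and 1.19 FPKM with PBS to 1.76, 1.48 and 1.39 FPKM with IL-33 (log2 change 0.34, SE 0.12, limma adjusted p = 0.0459). That call was lost without any 1 library except PBS replicate 3 (0.26 to 0.39) and with equal totals (0.15). Slc36a1, which encodes PAT1 of endosomes, lysosomes and the cell surface, was at 7.97 ± 0.44 with PBS and 9.51 ± 1.08 FPKM with IL-33 (change 0.22, SE 0.10, limma adjusted p = 0.0828). Slc36a4 was at 4.06 ± 0.45 and 4.83 ± 0.43 FPKM (change 0.21, SE 0.10, limma adjusted p = 0.124). Slc36a1 and Slc36a4 passed with quantile normalization (0.31 and 0.30) and cyclic loess (0.33 and 0.34), and Slc36a1 also without IL-33 replicate 2 (0.31), but their estimates were below 0 with equal totals (-0.08 and -0.07). Slc36a2 was below the filter, at 0.886 FPKM in IL-33 replicate 1 and at most 0.0607 FPKM in any other library.

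The 3 members of the Slc43 family did not pass as deposited. Slc43a2, the LAT4 facilitator of large neutral amino acids, was at 28.0 ± 2.90 FPKM with PBS against 26.3 ± 1.03 with IL-33 (change -0.08, SE 0.09), and passed as lower with equal totals (-0.41, limma adjusted p = 0.00544). Slc43a1, the related LAT3, was at 0.886, 0.413 and 0.748 FPKM with PBS against 1.19, 1.06 and 1.10 with IL-33. Its groups were separate, and the change of 0.34 (SE 0.14) had a limma adjusted p of 0.067. It passed as higher with quantile normalization (0.35), cyclic loess (0.47), no variance trend, library weights and without PBS replicate 1 (0.43). Because the filter took Slc43a1 through its IL-33 values alone, these passes are no independent support for a rise. The nucleobase carrier gene Slc43a3 was at 6.07 ± 1.15 and 7.27 ± 1.26 FPKM (change 0.23, SE 0.15).

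Only 3 of the 20 rows of the Slc6 prefix were tested. Slc6a6, the taurine carrier, was the fourth most abundant member in both groups at 40.5 ± 1.93 and 41.2 ± 3.06 FPKM (change 0.02, 95% interval -0.16 to 0.20). Slc6a12, a carrier of betaine and GABA, fell. Its levels were 4.66, 4.91 and 5.45 FPKM with PBS against 2.64, 2.87 and 4.56 with IL-33, so IL-33 replicate 3 lay just under the PBS libraries. The log2 change was -0.49 (SE 0.16, limma adjusted p = 0.0386), and the call was lost without any 1 library except IL-33 replicate 3 (-0.53 to -0.37), with no filter, with quantile normalization (-0.40) and with cyclic loess (-0.35). Slc6a13, another GABA carrier, was at 4.22 ± 0.17 and 3.68 ± 1.11 FPKM, a change of -0.19 (SE 0.17) that passed only with equal totals (-0.46).

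**Figure D4:**
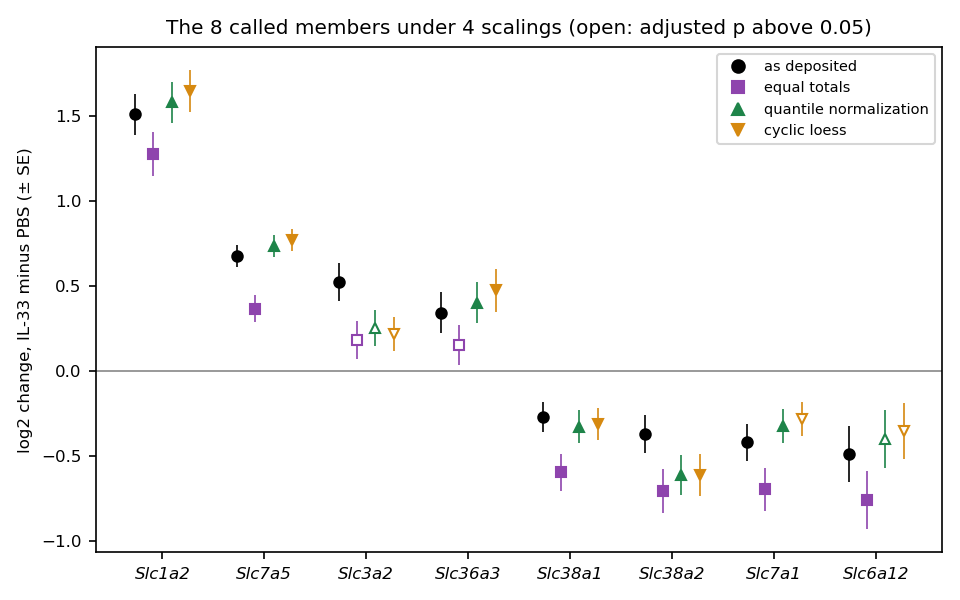
Log2 change (IL-33 minus PBS, ± SE) of the 8 members that passed as deposited, under the deposited scaling and 3 others; open symbols have an adjusted p above 0.05. Slc1a2, Slc7a5, Slc38a2 and Slc38a1 stay filled under all 4, whereas Slc3a2 is filled as deposited and open under the other 3.

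The 2 tested opposite-strand rows did not pass as deposited. Slc7a6os, which despite its symbol encodes a protein of its own, was at 23.0 ± 0.45 FPKM with PBS against 20.5 ± 1.22 with IL-33 (change -0.16, SE 0.07), and it passed as lower under the 3 other scalings (-0.49 to -0.20). The noncoding Slc36a1os was at 1.51, 1.74 and 1.13 FPKM with PBS against 0.883, 0.981 and 0.956 with IL-33 (change -0.34, SE 0.12, limma adjusted p = 0.0516). It passed as lower with equal totals (-0.52), with no variance trend, with library weights and without PBS replicate 3. Because the filter took Slc36a1os through its PBS values alone, these passes are no independent support for a fall. In the GENCODE M21 annotation of mm10, neither overlaps the carrier it is named for.

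The order of levels was similar in both groups at the top. With PBS, Slc3a2 (81.8 FPKM) and Slc38a2 (75.3) led and their ranges overlapped, followed by Slc1a5 (49.4), Slc6a6 (40.5) and Slc43a2 (28.0), each apart from the one before. Slc43a2, Slc7a7, Slc38a10 and Slc38a1 overlapped with their neighbours in that order. With IL-33, Slc3a2 (118) lay apart from Slc38a2 (58.4), while Slc38a2, Slc1a5 (49.0) and Slc6a6 (41.2) overlapped with their neighbours. The 5 most abundant members held 58.8% to 60.9% of the members' summed FPKM in each library.

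Several members lie next to each other in the genome. Slc38a1 (chr15:96571418-96642913) and Slc38a2 (chr15:96687392-96699730), which fell, are 44.5 kb apart on the minus strand. Slc6a13 and Slc6a12 are 5.34 kb apart on chromosome 6 and had changes of -0.19 and -0.49. On chromosome 11, Slc36a3, Slc36a2, Slc36a1os and Slc36a1 follow each other with gaps of 6.76, 6.64 and 6.49 kb, and the tested ones had changes of 0.34, -0.34 and 0.22. Slc43a1 and Slc43a3 are 73.0 kb apart on chromosome 2 (0.34 and 0.23). The other called members have no further member within 100 kb: Slc7a5 at chr8:121881150-121907694 (minus strand), Slc3a2 at chr19:8706882-8723369 (minus), Slc1a2 at chr2:102658659-102790784 (plus) and Slc7a1 at chr5:148327410-148399904 (minus).

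Sequence upstream of the start is shown for 3 called members, the most abundant one and those with the largest rise and a fall that held without any 1 library, all with an entry in the RefSeq promoter table (GRCm38.p6), which held 45 of the 62 symbols in 66 windows. Slc7a5 had no entry there and was not searched for motifs. For 49 of the 66 windows the bases just after the start were found in a GENCODE transcript of the gene. Each stretch is the longest run, within the 250 bases before an annotated start, that holds no base annotated as untranslated region, written 5′ to 3′ on the gene's strand. The Slc3a2 stretch is chr19:8713898-8713960 on the minus strand and the Slc1a2 stretch is chr2:102706188-102706355 on the plus strand, both before a start inside the longer GENCODE gene, and the Slc7a1 stretch is chr5:148399905-148400154 on the minus strand. They run from base 63 to 1 before the start for Slc3a2, 250 to 83 for Slc1a2 and 250 to 1 for Slc7a1. The bases nearest the Slc1a2 start are thus not shown.
Slc3a2: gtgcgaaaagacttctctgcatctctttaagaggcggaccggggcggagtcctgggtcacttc
Slc1a2: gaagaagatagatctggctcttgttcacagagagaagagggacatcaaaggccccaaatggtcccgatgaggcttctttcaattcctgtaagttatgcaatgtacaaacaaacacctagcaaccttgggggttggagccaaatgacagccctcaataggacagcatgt
Slc7a1: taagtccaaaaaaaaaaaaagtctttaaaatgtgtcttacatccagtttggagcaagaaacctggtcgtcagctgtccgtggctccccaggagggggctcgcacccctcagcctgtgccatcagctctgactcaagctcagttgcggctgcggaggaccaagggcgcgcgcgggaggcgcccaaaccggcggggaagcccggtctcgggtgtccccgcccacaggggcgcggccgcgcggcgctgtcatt

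Motifs of 3 kinds were searched on both strands of all windows. The stretches above hold none of them, so no base is in capitals. The element TGATGNAA, bound by ATF4 with C/EBP factors, was in 3.03% of the members' windows (2 windows, both of Slc7a7) and in 3.45% of all 32851 windows. The E-box CACGTG was in 12.1% of the members' windows (8 genes, of which Slc36a1, Slc38a7 and Slc43a1 were tested) and in 6.02% of all. The STAT element TTCNNNGAA was in 6.06% of the members' windows and in 7.02% of all. It was found for Slc1a3, Slc38a9, Slc36a1os and a second start of Slc7a1, where TTCAAAGAA opened 146 bases before the start. All 250 bases of that Slc7a1 window lie in annotated exon sequence within the gene. A match is a description of letters, not of a bound site.

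Among the 36 members below the filter, 31 were under 0.5 FPKM in every library. When no filter was applied, further members, 3 of them named here because of their values, passed at low levels in a fit in which 18.5% of 17265 genes were higher and 17.0% lower. The glutamate carrier gene Slc1a1 was at 0.0195, 0.0179 and 0.0320 FPKM with PBS against 0.309, 0.251 and 0.412 with IL-33 (limma adjusted p = 0.00355). The serotonin carrier gene Slc6a4 was at 0.0805, 0.0739 and 0.0662 FPKM against 0.200, 0.159 and 0.255 (limma adjusted p = 0.0159). For Slc1a1 and Slc6a4 a few fragments set each value, so these p-values rest on a poorly measured spread between libraries. Slc7a14 was at 0.923, 0.870 and 0.818 FPKM with PBS against 0.456, 0.649 and 0.451 with IL-33 (limma adjusted p = 0.0182).

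Genes around the carriers were read from fixed lists. Of 37 tested genes of amino acid sensing by mTORC1, 14 rose and 10 fell (median change 0.08), where 28.0% of all tested genes rose and 25.5% fell. Lamtor1, a lysosomal anchor of the sensing complex, rose from 64.2 ± 6.36 to 118 ± 7.46 FPKM (log2 change 0.87, SE 0.09). Lamtor3 (0.65), Lamtor5 (0.57) and Sec13 (0.35) rose as well. Mios, a subunit of the complex that relays amino acid sufficiency, fell from 5.85 ± 0.35 to 3.997 ± 0.19 FPKM (-0.46, SE 0.08). With equal totals 3 of this list were higher and 19 lower, beside 11.1% and 50.7% of all tested genes, so the lower counts were near the background in both scalings. Not all of the rises named here therefore held with equal totals.

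Of 23 tested enzymes of amino acid metabolism, 12 rose and 1 fell (28.0% and 25.5% of all tested genes did so), and the median change was 0.28. Got1, the cytosolic aspartate aminotransferase, rose from 14.2, 14.9 and 15.0 FPKM with PBS to 39.8, 45.1 and 40.7 FPKM with IL-33 (log2 change 1.45, SE 0.07, limma adjusted p = 4.76e-05). Bcat2, which transaminates branched-chain amino acids in mitochondria, rose by 0.73 (SE 0.08), and Glud1, the glutamate dehydrogenase, by 0.67 (SE 0.07). Pycrl (0.42) and Oat (0.37), of proline and ornithine metabolism, rose less. With equal totals 3 were higher and 6 lower (11.1% and 50.7% of all tested genes), so not all of the rises named here held.

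Of 8 other tested amino acid and peptide carriers, 2 rose and none fell by limma, the share that rose being near the 28.0% of all tested genes. Slc15a3, a peptide and histidine carrier of endolysosomes, rose from 29.8 ± 4.47 to 65.4 ± 0.97 FPKM (log2 change 1.12, SE 0.11, limma adjusted p = 0.000475). Ctns, the lysosomal cystine exporter, rose by 0.25 (SE 0.07), a call lost without IL-33 replicate 3 or PBS replicate 3 and with equal totals (-0.06). Of 10 tested partners and regulators of carriers, 3 rose and 1 fell, again beside 28.0% and 25.5% of all tested genes. Lgals3, whose product galectin-3 binds the sugars of CD98, rose from 176 ± 24.8 to 621 ± 50.5 FPKM (log2 change 1.82, SE 0.11). Bsg (0.53) and Ndfip1 (0.47) rose too. Of this list, 2 were higher with equal totals (11.1% of all tested genes were), as with quantile normalization and cyclic loess. Nedd4, a ubiquitin ligase, fell from 49.8 ± 5.53 to 31.8 ± 3.52 FPKM (-0.63, SE 0.11).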

How the data were processed

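Per the submitters' processing notes, reads were handled with TopHat2 2.0.13, Bowtie2 2.2.3, SAMtools 0.1.19 and Cuffnorm 2.2.1 on mm10. Which annotation, between-library scaling and strand setting Cuffnorm used is not given in the sources used here. Each table deposited by the authors gives FPKM for the genes of 1 library. FPKM hold no read counts, so absolute depth is unknown. The relative divisor of each library came from the commonest ratio between libraries among genes of at most 0.3 FPKM. Since the scaling is unknown, this divisor may differ from relative depth. Reads shared by similar or overlapping genes could have been divided between them.

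Values were analysed as log2(FPKM + 1). Genes that reached 1 FPKM in 3 or more libraries were tested with limma 3.58.1 in R 4.3.3 (two-sided, variance following the mean, no block, Benjamini-Hochberg adjustment), after a test on simulated data. The groups share replicate numbers, and the labels do not say whether these pair the libraries. The members and lists were chosen with earlier results of these data known. All tested members were named, as were up to 5 called genes per list of related genes with the smallest adjusted p, and any other gene was chosen after its values were seen. Some members and list genes are not reported here. Positions came from GENCODE M21 and promoter sequences from RefSeq GRCm38.p6. Alternatives were other pseudocounts, filters, scalings, variance settings, a replicate block, library weights and left-out libraries. Tables were made with pandas 2.3.3 and numpy 2.4.6 in Python 3.11.15, and figures with matplotlib 3.10.9.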

Additional observations from a re-analysis of the deposited data

How the results depend on the processing

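Of the 8 transporter calls, those of Slc1a2 and Slc7a5 held under every alternative in which they were tested. With equal totals the count of higher transporter members went from 4 to 2 and that of lower ones from 4 to 13, the median change from 0.02 to -0.28, and the difference in summed FPKM from 25.96 to -86.9. A filter of 5 FPKM left 2 higher and 2 lower of the 18 members it tests (58.2% of all genes tested there passed). With 1 library left out, 3 to 5 members were higher and 1 to 4 lower (42.0% to 51.0% of all tested genes passed), and their median change lay between -0.03 and 0.08. Equal totals turned the estimates of 10 members below 0, among them Slc38a10 (-0.22) and Slc6a6 (-0.31), which then passed, and of Ctns (-0.061). For the mTORC1 list, equal totals gave 3 higher and 19 lower (14 and 10 as deposited), and left-out libraries gave 13 to 14 higher and 6 to 10 lower. For the enzymes, equal totals gave 3 higher and 6 lower (12 and 1 as deposited). Quantile normalization and cyclic loess gave 3 lower each, library weights 2, and left-out libraries 9 to 10 higher and 1 to 2 lower. For the other carriers (2 higher and 0 lower as deposited, limma), equal totals gave 1 higher and 2 lower. Quantile normalization, cyclic loess and library weights gave 1 lower each, and left-out libraries 1 to 3 higher and 0 to 1 lower. Among the partners and regulators (3 higher and 1 lower as deposited), equal totals, quantile normalization and cyclic loess gave 2 higher each. Equal totals gave 2 lower, and quantile normalization and cyclic loess 3 each. The cause of these shifts was not tested. Without the opposite-strand rows, an alternative added after seeing the data, the counts were 4 and 4.

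Whether the replicate numbers pair the libraries is not given in the labels. Over all tested genes, deviations of same-numbered libraries correlated at 0.075, -0.054 and 0.089. Not every library correlated best with its own number. With 3 libraries per group, such correlations cannot exclude a pairing. With the replicate block, 3 members were higher and 3 lower (Slc36a3 and Slc38a1 did not pass), 1 other carrier was higher, and 5258 genes passed in place of 6169. Depth limits the members below 1 FPKM, where a few fragments set a value.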
